A study of Bos taurus with 30 samples.

Results

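The genes followed here are 9 that respond to interferon in the bovine uterus, namely ISG15 (gene ID 281871), MX1 (280872), MX2 (280873), RSAD2 (506415), IFI6 (512913), IFIT3 (509678), USP18 (515202), IRF9 (509855) and IRF1 (789216). They were taken by symbol from the platform annotation, which gave each of the 9 genes 1 probe, spotted in 2 adjacent positions, among 13824 probes and 8073 genes named by probes of a single symbol. The data came from 30 hybridisations in 2 colours, with 2 arrays for each of 15 cows. Each array compared the caruncle, the aglandular site of the endometrium where the placenta attaches, with the intercaruncular endometrium between these sites, both from 1 pregnant animal. The groups were 5 cows carrying an embryo from somatic cell nuclear transfer (SCNT, the method of cloning), 5 cows that received an embryo fertilised in vitro (IVF-ET) and 5 cows inseminated artificially (AI). The labels name each animal, so the replicates are separate animals, and they give no age, breed, day of pregnancy or donor cell for any group.

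In ruminants the elongating conceptus secretes interferon tau, a type I interferon that signals to the mother that she is pregnant. It binds the receptor chains IFNAR1 and IFNAR2 on endometrial cells, and the kinases JAK1 and TYK2 then pass on a signal by which IRF9 helps to switch on interferon-stimulated genes. The endometrium of early pregnancy is known for high levels of ISG15, the MX proteins and RSAD2.

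The deposited values are log ratios between the tissues and were read as log2. Neither their base nor the tissue on top is given in the labels, so they are described only as positive or negative, with 0 where both tissues carried the same signal. A ratio of 0 says nothing of how much of a transcript either tissue held. The ratio compares whole tissue, so fewer cells of a type and less RNA per cell cannot be told apart. An array held a value at between 26744 and 27643 of 27648 spots, and its values had an SD over probes of 0.228 to 0.816. By the labels, IVF-ET replicate 3 carried the same dye orientation on both arrays. It was left out of the fit, which used 28 arrays of 14 animals. The values of its arrays ran opposite ways despite that label, at r = -0.317 over probes. Epithelial markers had medians of -1.61 and 1.27 on them and stromal markers 0.86 and -1.01, and the reason was not tested. The labelled tissues cannot be checked by the presence of their markers in a ratio. Epithelial markers had animal medians of -0.39 to 0.53 in SCNT, 0.26 to 0.80 in IVF-ET and -0.49 to 0.22 in AI, and stromal markers -0.96 to -0.31, -0.70 to -0.21 and -0.08 to 0.73 in the same groups.

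The arrays that stood apart on these genes were both arrays of SCNT replicate 5 and the second array of AI replicate 1. Results that rest on them are given with and without them. Over the 9 members, the median on the remaining arrays lay between -0.92 and 0.67, whereas it was -1.64 and -2.34 on the arrays of SCNT replicate 5 and -3.46 on the second array of AI replicate 1. The duplicate spots of a member differed on an array by a median of 0.06 (IFI6) to 0.205 (IFIT3), against 0.139 over all probes, and by at most 1.41 (IFIT3). IFI6 had a value on 23 arrays and was missing on 3 of 10 IVF-ET arrays and 4 of 10 AI arrays. MX1 and RSAD2 were each missing on 1 AI array, and the other members had a value on all 30.

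**Figure D1:**
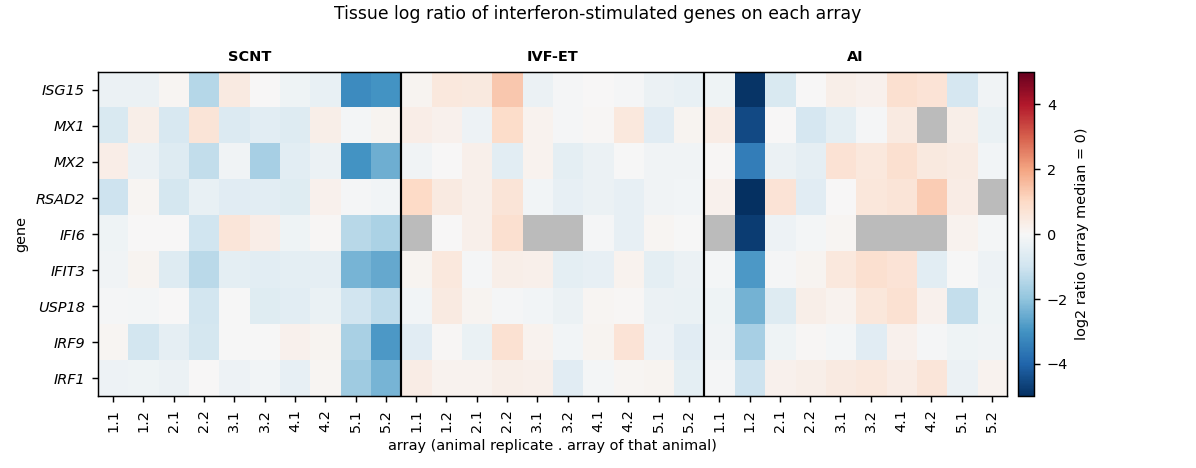
Log2 ratio of each of the 9 genes (rows) on each of 30 arrays (columns, named by replicate and array), grouped as SCNT, IVF-ET and AI, with blue for negative, red for positive and grey for no value. The darkest column is the second array of AI replicate 1, with values from -4.98 to -1.03, and on the arrays of SCNT replicate 5 the cells of MX1 and RSAD2 stay near white.

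On the second array of AI replicate 1, with the caruncle in Cy5, all 9 members were negative. The antiviral enzyme RSAD2 (viperin), which makes a modified nucleotide that blocks viral replication, had the lowest value of 13819 probes at -4.98, a 31.6-fold difference in signal if the values are log2. ISG15, a ubiquitin-like protein that is attached to other proteins, followed at -4.91, and IFI6, a membrane protein that restrains cell death in human cells, was rank 3 at -4.74. MX1, a dynamin-like GTPase that acts against viruses, was rank 4 at -4.50. Its paralogue MX2 was rank 13 at -3.46 and IFIT3, a partner of other IFIT proteins that bind viral RNA, rank 23 at -2.86. USP18, the protease that removes ISG15 from proteins and also damps interferon receptor signalling, was rank 33 at -2.36. The transcription factors were the mildest members on this array, with IRF9 at rank 84 and -1.67 and IRF1, which interferons induce and which binds elements of the same kind, at rank 302 and -1.03. Thus 7 of 9 members were among the lowest 50 probes, and 49 probes, 0.355% of those with a value, were below -2.

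The first array of the same animal, with the dyes the other way round, did not show these values. There ISG15 was -0.22, MX1 0.38, MX2 0.04, RSAD2 0.22, IFIT3 -0.11, USP18 -0.20, IRF9 -0.18 and IRF1 -0.05, and IFI6 had no value. The member median was -0.08 on that array. The AI animal values of these genes therefore rest, for replicate 1, on a mean of arrays that disagree on the members, and for IFI6 on the second array alone. Over all probes the pair of arrays correlated at r = -0.084, which was not particular to this animal. In the other animals with both orientations r ran from -0.318 (IVF-ET replicate 4) to 0.654 (SCNT replicate 5). It was negative in AI replicates 2, 4 and 5 and IVF-ET replicates 2, 4 and 5, and positive in the rest. Cell markers moved with this array: the stromal list had a median of 2.25 there and -0.96 on the first array, and the epithelial list -0.29 and 0.51. The 13 trophoblast probes had medians of 0.09 and -0.44, with none below -2, and the 18 leukocyte probes -0.01 and 0.03. Their part in the result was not tested.

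On both arrays of SCNT replicate 5 a different subset of the members was negative. ISG15 was -3.16 and -2.97, MX2 -2.97 and -2.45, and IFIT3 -2.33 and -2.56. IRF9 was -1.64 and -2.89, and IRF1 -1.79 and -2.34, so the transcription factors, mild in AI replicate 1, were among the lower members here. IFI6 was -1.38 and -1.60, and USP18 -0.96 and -1.26. MX1, at -0.09 and 0.15, and RSAD2, at -0.07 and -0.13, sat in the middle of the array, with 42.6% and 67.5% of probes below MX1 and 44.4% and 35.6% below RSAD2. MX1 and RSAD2, both among the 4 lowest probes on the second array of AI replicate 1, were thus the members nearest 0 in SCNT replicate 5. MX1 and MX2 are neighbours in the bovine RefSeq annotation, with 0 annotated genes between them, yet MX2 minus MX1 was -2.74 in this animal. In the other SCNT animals it was between -0.86 and 0.28, in IVF-ET animals between -0.46 and 0.05, and in AI animals between 0.04 and 0.89.

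The arrays of SCNT replicate 5 also differed from the rest as a whole. They had the widest spread, with SDs over probes of 0.816 and 0.723, and correlated with each other at r = 0.654, and 366 and 382 probes, 2.65% and 2.76%, were below -2. None of the members was among the lowest 50 probes there, while 4 on the first array and 5 on the second were among the lowest 500. The 7 probes of GAPDH, a glycolytic enzyme chosen after its values were seen, had medians of -3.03 and -3.37 on these arrays, against -0.79 to 1.40 on the other 28. The 7 ACTB probes had medians of -0.80 and -0.73, against -0.40 to 2.32 on the other 28, and the second array of AI replicate 1 had the highest median of both genes. The 56 probes of ribosomal proteins were at -0.12 and -0.40, within the -0.43 to 0.18 of the others. Stromal markers had medians of -0.75 and -0.58 on the arrays of SCNT replicate 5, with 4 of 12 probes below -2 on each. The part of these features in the members' values was not tested.

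**Figure D2:**
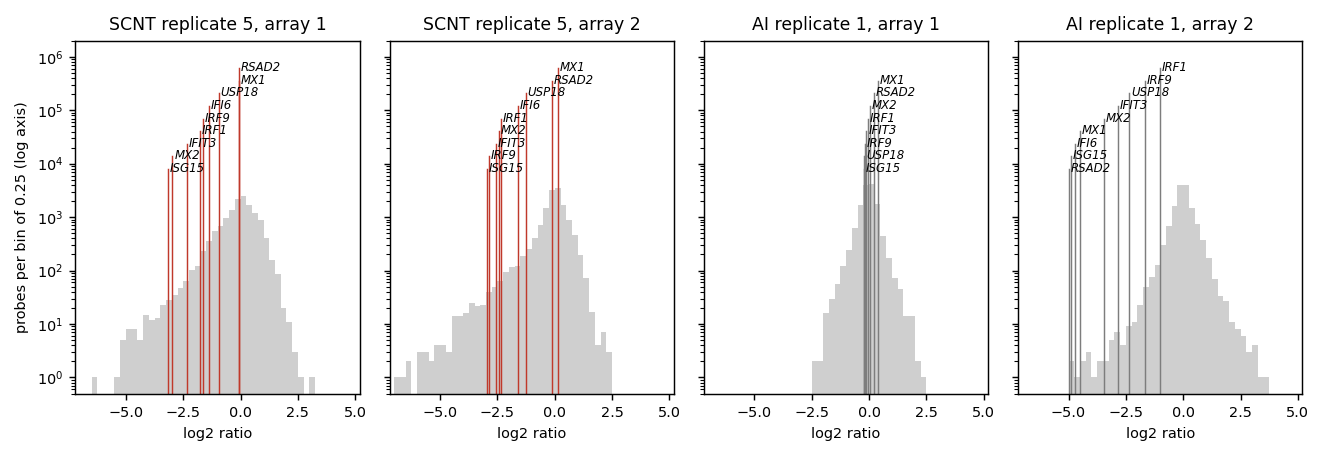
Number of probes (log axis) by log2 ratio in bins of 0.25 on the arrays of SCNT replicate 5 and AI replicate 1, with a line for each member. On the second array of AI replicate 1 the members lie in the left tail beyond nearly all probes, on its first array all lie between -0.22 and 0.38, and in SCNT replicate 5 MX1 and RSAD2 fall at the centre of a broad distribution.

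Away from these arrays the members were still unevenly placed. An array's lowest 500 probes make up 3.62% to 3.72% of its probes. They held 31 of 90 member values in SCNT (34.4%), 2 of 87 in IVF-ET (2.30%) and 15 of 84 in AI (17.9%). Without SCNT replicate 5 and the second array of AI replicate 1 the counts were 22 of 72 (30.6%) in SCNT and 6 of 75 (8%) in AI. The highest 500 held 0 of 90 in SCNT, 6 of 87 in IVF-ET and 10 of 84 in AI. At least 1 member was among the lowest 500 on 9 of 10 SCNT arrays, 2 of 10 IVF-ET arrays and 5 of 10 AI arrays. Without the arrays that stood apart this held for 7 of 8 SCNT and 4 of 9 AI arrays. The ranks were taken before the dye effect was subtracted. Values of 1 array are not independent of each other, so these counts carry no test.

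The following animal values are means of the arrays of an animal, with the effect of the dyes on a probe taken off. Among the antiviral effectors, MX1 had values of -0.24, -0.09, -0.61, -0.16 and 0.03 in SCNT replicates 1 to 5, 0.29, 0.31, 0.30 and -0.21 in IVF-ET replicates 1, 2, 4 and 5, and -2.06, -0.41, -0.27, -0.07 and -0.01 in AI replicates 1 to 5. All 5 AI animals and 4 of 5 SCNT animals were negative and 3 of 4 IVF-ET animals were positive, and the groups overlapped through IVF-ET replicate 5. The MX1 value of AI replicate 4 rested on 1 array, which stood at 0.43 before the dye effect was subtracted. MX2 had values of 0.03, -0.94, -0.93, -0.41 and -2.71 in SCNT, -0.07, -0.14, -0.16 and -0.16 in IVF-ET, and -1.71, -0.37, 0.62, 0.64 and 0.13 in AI. The IVF-ET animals nearly coincided for MX2, while the SCNT and the AI animals were each widely spread and overlapped them. RSAD2 had values of -0.47, -0.63, -0.53, -0.19 and -0.10 in SCNT, 0.72, 0.45, -0.36 and -0.16 in IVF-ET, and -2.38, 0.06, 0.31, 0.96 and 0.05 in AI. For RSAD2 all 5 SCNT animals were negative and 4 of 5 AI animals positive, and AI replicate 1 lay below every SCNT animal. The RSAD2 value of AI replicate 5 rested on 1 array.

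IFI6 had values of -0.09, -0.49, 0.45, -0.09 and -1.49 in SCNT, 0.04, 0.52, -0.23 and 0.03 in IVF-ET, and -4.78, -0.18, 0.06 and 0.02 in AI replicates 1, 2, 3 and 5. It rested on 1 array in IVF-ET replicate 1 and in AI replicates 1 and 3, and apart from AI replicate 1 and SCNT replicate 5 its values overlapped between the groups. IFIT3 had values of -0.01, -1.0, -0.52, -0.47 and -2.44 in SCNT, 0.33, 0.13, -0.11 and -0.40 in IVF-ET, and -1.49, 0.03, 0.66, 0.09 and -0.13 in AI. All 5 SCNT animals were negative, and 4 of them lay below every IVF-ET animal.

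In the ISG15 system, ISG15 itself had values of -0.28, -0.67, 0.23, -0.31 and -3.07 in SCNT, 0.33, 0.92, -0.02 and -0.35 in IVF-ET, and -2.56, -0.37, 0.25, 0.76 and -0.51 in AI. Each group held animals on both sides of 0, and the extremes were SCNT replicate 5 and AI replicate 1. USP18 had values of -0.09, -0.46, -0.31, -0.44 and -1.11 in SCNT, 0.15, 0.03, 0.08 and -0.31 in IVF-ET, and -1.28, -0.18, 0.36, 0.50 and -0.71 in AI. All 5 SCNT animals were negative and 3 of 4 IVF-ET animals positive, with AI animals on both sides.

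Of the transcription factors, IRF9 had values of -0.41, -0.65, -0.01, 0.18 and -2.27 in SCNT, -0.24, 0.22, 0.41 and -0.41 in IVF-ET, and -0.92, -0.09, -0.34, 0.07 and -0.21 in AI. IRF1 had values of -0.24, -0.15, -0.19, -0.16 and -2.06 in SCNT, 0.28, 0.24, -0.01 and -0.17 in IVF-ET, and -0.54, 0.25, 0.49, 0.49 and -0.05 in AI. IRF9 overlapped between the groups, with SCNT replicate 5 the lowest. For IRF1, 4 SCNT animals lay close together just below 0 and SCNT replicate 5 was far from them.

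**Figure D3:**
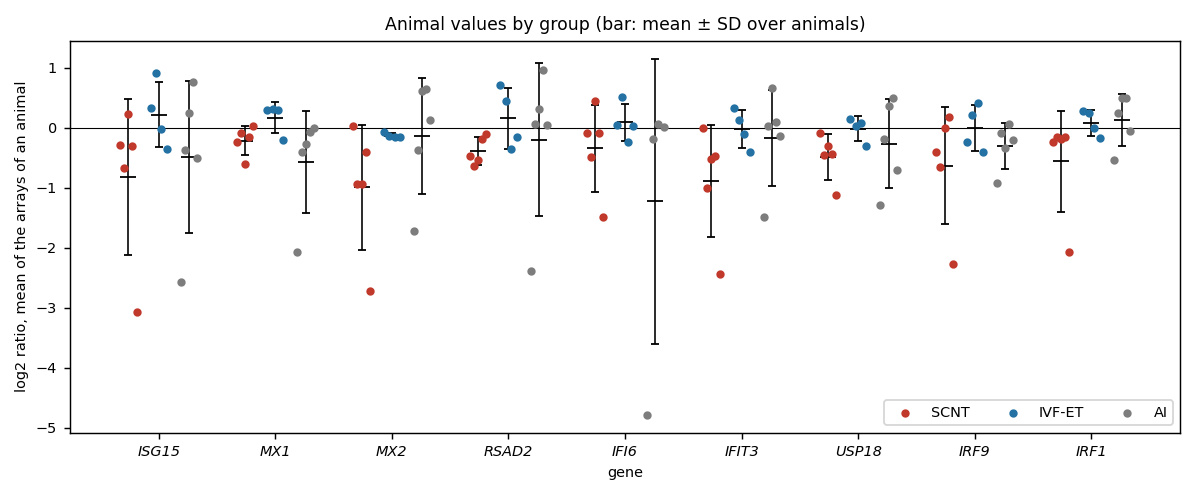
Log2 ratio of each gene in each animal (dots) for SCNT, IVF-ET and AI, with the mean and SD over animals as bars. The long bars come from SCNT replicate 5 (for example ISG15 at -3.07) and AI replicate 1 (IFI6 at -4.78), and the IVF-ET animals lie between -0.41 and 0.92.

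In SCNT pregnancies the mean of every member was negative, and none of them differed from 0 past the threshold. The largest means were -0.99 ± 1.04 for MX2, -0.89 ± 0.94 for IFIT3 and -0.82 ± 1.30 for ISG15 (SD, n = 5), with adjusted p-values of 0.143, 0.138 and 0.394 in limma, two-sided, over 13818 probes. IRF9 averaged -0.63 ± 0.97, IRF1 -0.56 ± 0.84 and USP18 -0.48 ± 0.38, and RSAD2, IFI6 and MX1 lay at -0.38 ± 0.23, -0.34 ± 0.73 and -0.21 ± 0.24. At an adjusted p of 0.05 the fit called 0 of 9 members, beside 1.85% of all probes (256 of 13818). With the second array of AI replicate 1 left out 0 of 13814 probes were called, when 1923 had an unadjusted p under 0.05. With that whole animal left out 325 of 13818 probes were called, and without SCNT replicate 5 alone 229. With every animal in the fit, 5 of 9 members (MX2, IFIT3, USP18, IRF9 and IRF1) had an unadjusted p under 0.05, beside 14.8% of all probes. All 9 means were negative, beside 49.8% of all probes, and 4 genes (RSAD2, IFIT3, USP18 and IRF1) were negative in 5 of 5 animals. The median of the members was -0.56, against 0.0 for all probes, and -0.27 without SCNT replicate 5, when IRF1 averaged -0.18 ± 0.04 and ISG15 -0.26 ± 0.37 (SD, n = 4). RSAD2 and MX1, near 0 in that animal, then lay further from 0, at -0.45 ± 0.19 and -0.27 ± 0.23. Without SCNT replicate 5 alone, 2 of 9 members (MX2 and IFIT3) had an unadjusted p under 0.05, beside 12.3% of all probes, and without AI replicate 1 alone 7 of 9 did, beside 14.9%. With SCNT replicate 5 and the second array of AI replicate 1 left out, 0 of 8 members tested were called and 5 of 8, beside 11.3% of all probes, had an unadjusted p under 0.05. MX2 came closest, with an adjusted p of 0.142 in limma.

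In IVF-ET pregnancies the members lay close to 0. Their means ran from -0.14 ± 0.04 (MX2) to 0.22 ± 0.54 (ISG15; SD, n = 4), 4 were negative and the median was 0.09. The fit called 0 of 9 members and 0.0% of all probes, and 0 of 9 members, against 7.94% of all probes, had an unadjusted p under 0.05. MX2 was negative in 4 of 4 animals. The arrays of IVF-ET replicate 3, outside the fit, had member medians of 0.17 and -0.35. The other arrays of that group ran from -0.29 to 0.66, so the second array lay just below them, with all 8 measured members negative.

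In AI pregnancies the means ran from -1.22 ± 2.37 for IFI6 (SD, n = 4) to 0.13 ± 0.44 for IRF1 (SD, n = 5), and 8 of 9 were negative. None was called, with 0.0% of all probes called, and 1 of 9, MX1, had an unadjusted p under 0.05, beside 4.41% of all probes. MX1 averaged -0.56 ± 0.85 and was negative in 5 of 5 animals (adjusted p of 1.0 in limma). In AI replicate 4 MX1 rested on 1 array and was negative only after the dye effect was subtracted. Without AI replicate 1 the median of the members was 0.03 in place of -0.26, IFI6 averaged -0.03 ± 0.13 (SD, n = 3), ISG15 0.03 ± 0.59 and MX1 -0.19 ± 0.18 (SD, n = 4), and RSAD2, at 0.34 ± 0.43, was positive in all 4 animals.

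Whether the tissue ratio depended on how the pregnancy was made was asked of each pair of groups. Here the values were read as already turned to the tissues, and the reading as Cy5 over Cy3 is given below. For SCNT minus IVF-ET all 9 differences were negative, from -1.04 ± 0.64 (SE) for ISG15 to -0.38 ± 0.32 for MX1, with a median of -0.62. None passed the threshold, with adjusted p-values of 0.915 to 0.952 in limma, and 0.0% of all probes were called. At an unadjusted p under 0.05 there were 0 of 9 members and 4.41% of all probes. The 95% intervals held 0 for every member and, for ISG15, ran from -2.39 to 0.31. Without AI replicate 1, which enters these differences only through the shared spread, 4 of 9 (MX1, MX2, RSAD2 and IFIT3) had an unadjusted p under 0.05, beside 4.49% of all probes, with adjusted p-values of 0.914 in limma. Without SCNT replicate 5 there were 0 of 9, beside 3.23%, and the median was -0.43 with all 9 still negative.

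For SCNT minus AI, 7 of 9 differences were negative, from -0.85 ± 0.46 (SE) for MX2 to 0.88 ± 0.77 for IFI6. None was called, beside 0.97% of all probes, and 1 of 9, IRF1 at -0.69 ± 0.32 (unadjusted p = 0.0464, adjusted p = 0.375 in limma), was under an unadjusted 0.05, beside 12.9% of all probes. For IVF-ET minus AI, 1 of 9 differences was negative and none was called, beside 0.0579% of all probes. MX1 alone was under an unadjusted 0.05 there, beside 8.37% of all probes, at 0.73 ± 0.32 (unadjusted p = 0.0351, adjusted p = 0.553 in limma), with 3 of 4 IVF-ET animals positive and 5 of 5 AI animals negative. AI replicate 4 was negative there only after the dye effect was subtracted from its 1 array. Since the AI ratio may run the other way, its sign was also turned. Then 0 of 9 members were called in SCNT minus AI and in IVF-ET minus AI, beside 0.0% of all probes in each, and in SCNT minus AI all 9 differences were negative and 6 had an unadjusted p under 0.05, with a median of -0.93. Of all probes 50.4% were negative and 6.49% had an unadjusted p under 0.05 in that comparison. These comparisons share the AI animals, replicate 1 included. Without that animal, SCNT minus AI had 9 of 9 differences negative and 4 with an unadjusted p under 0.05, beside 14% of all probes, and 0 members were called, against 262 of 13818 probes. Without SCNT replicate 5 in its place, 5 of 9 differences were negative, 0 had an unadjusted p under 0.05, beside 13.3% of all probes, and the median was -0.06 against -0.33 with every animal. IVF-ET minus AI without AI replicate 1 had 4 of 9 differences negative, with a median of 0.0.

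MX1 followed the dyes more than the other members. In 12 of 13 animals with a value on both arrays it was lower on the array with the caruncle in Cy5 than on the array with the intercaruncular tissue in Cy5, with a median difference of -0.70. The exception was IVF-ET replicate 1, at 0.11. RSAD2 was lower there in 9 of 13 animals (median difference -0.42) and IFIT3 in 10 of 14 (-0.26), and the medians of the other 6 members lay between -0.18 and 0.15. In SCNT replicate 1, for example, MX1 was -0.78 and 0.29, and RSAD2 -1.04 and 0.11, with the caruncle and the intercaruncular tissue in Cy5. A difference of this kind cancels in the animal means used above where both arrays have a value, with values read as already turned to the tissues. In values of 1 array it is offset only by the subtracted dye effect. That took MX1 in AI replicate 4 from 0.43 to -0.07 and RSAD2 in AI replicate 5 from 0.38 to 0.05. Read instead as Cy5 over Cy3, the difference between orientations becomes the tissue ratio, and MX1 was then called in AI, at -0.81 ± 0.92 (SD, n = 5; adjusted p = 0.0447 in limma) and negative in 5 of 5 animals, beside 2.61% of all probes. Under that reading 0 of 9 members were called in SCNT, beside 0.0% of all probes, and 0 of 9 in IVF-ET, beside 0.00724%, and the member median in SCNT was 0.10 in place of -0.56. Without AI replicate 1 the same reading gave MX1 -0.41 ± 0.20 (SD, n = 4), negative in 4 of 4 animals, with an adjusted p of 0.0757 in limma. Read as Cy5 over Cy3, SCNT minus IVF-ET had 3 of 9 differences negative (median 0.15), beside 47.1% of all probes. SCNT minus AI had 1 of 9 negative (median 0.49), beside 51.8%, and a median of 0.03 without AI replicate 1. An unadjusted p under 0.05 was held by 1 and 3 of 9 members, beside 2.37% and 3.42% of all probes, and 0 were called. Each reading was applied to all groups alike. Over probes, the arrays of an animal correlated positively in every SCNT animal, but negatively in AI replicates 1, 2, 4 and 5 and IVF-ET replicates 2, 4 and 5.

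**Figure D4:**
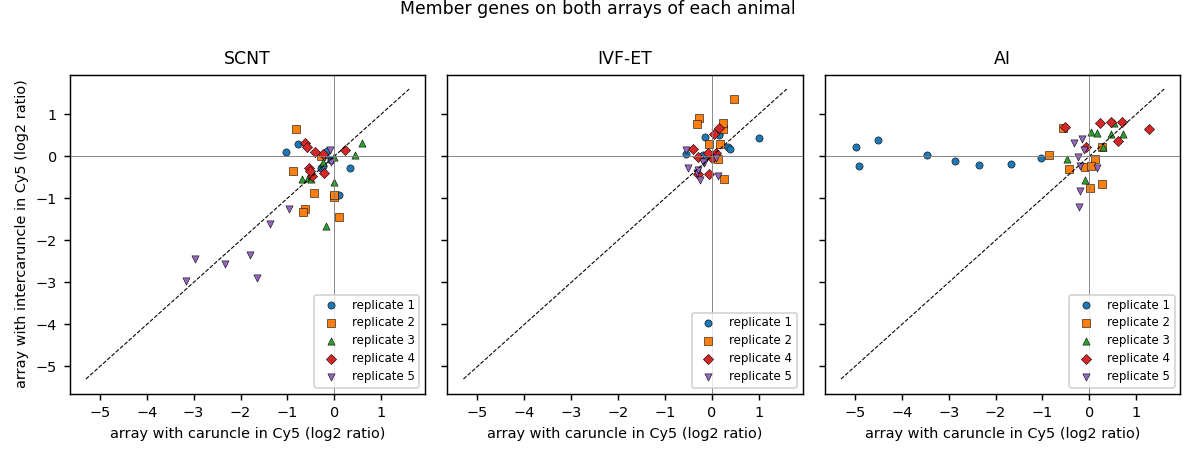
Log2 ratio of each member on the array with the caruncle in Cy5 (x axis) against the array with the intercaruncular tissue in Cy5 (y axis), for each animal with both orientations, with the line of equality dashed. SCNT replicate 5 lies along the line down to about -3, AI replicate 1 lies along the horizontal axis at 0 down to -4.98, and the other animals form a cloud around 0.

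The members varied together across animals, more closely with the animals that stand apart than without them. Over 14 animals, which share platform and processing, the 36 pairs of members had Pearson correlations of 0.16 to 0.95, with a median of 0.76 and 29 above 0.5. Without AI replicate 1 and SCNT replicate 5, the 12 animals gave -0.04 to 0.86, with a median of 0.40 and 15 pairs above 0.5. With SCNT replicate 5 alone left out the lowest pair was 0.45, and with AI replicate 1 alone left out it was -0.13. Correlations between pairs of other probes were not computed, so these values are not shown to be particular to the members. Among 8629 probes of other genes with a value in each animal, the genes with the pattern most like the mean of the members were EPSTI1 (r = 0.93), RTP4 (0.91), UBA7 (0.88), SMIM3 (0.88) and RAB3B (0.87). EPSTI1, an interferon-induced gene, was -2.60 in SCNT replicate 5 and -1.72 in AI replicate 1. RTP4, another interferon-induced gene, was -2.15 and -1.54, and UBA7, the enzyme that activates ISG15 for conjugation, was -1.53 and -1.06 in the same animals. Over the 12 other animals these 3 kept correlations of 0.83, 0.79 and 0.87, whereas SMIM3 had 0.38 and RAB3B, a small GTPase of vesicle traffic, 0.51.

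The rest of the interferon pathway was read from lists of 54 probes for 51 genes that are not members. None was called in SCNT, IVF-ET or AI or in a difference between them, beside the shares of all probes given above. In SCNT, 40 of 54 probes were negative with a median of -0.15, and 8 had an unadjusted p under 0.05, a share close to the 14.8% of all probes. In IVF-ET 29 of 54 were negative (median -0.01), and in AI 28 of 54 (median -0.01). The genes that attach ISG15 to proteins lay closest to the members: 5 of 5 were negative in SCNT, with a median of -0.36 and the lowest at -0.66 for UBA7. The effectors had 19 of 25 probes negative in SCNT (median -0.20), class I antigen presentation 11 of 14 (-0.13) and the signalling genes 6 of 11 (-0.02).

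The smallest p-values of these lists in SCNT belonged to IRF3, a transcription factor switched on by viral sensing, at -0.71 ± 0.77 (SD, n = 5; adjusted p = 0.088 in limma), and PSME2, a subunit of a proteasome activator, at -0.51 ± 0.57 (adjusted p = 0.129 in limma). Both were negative in 5 of 5 animals, from -2.08 to -0.30 for IRF3 and from -1.46 to -0.13 for PSME2. SCNT replicate 5 was the lowest for both, with arrays at -0.77 and -3.39 for IRF3 and at -0.87 and -2.05 for PSME2. With each array scaled to a common spread IRF3 was called, at -0.66 ± 0.15 (SE, adjusted p = 0.0298 in limma). On the positive side were TRIM21, a cytosolic antibody receptor, at 0.15 ± 0.24 and OASL at 0.11 ± 0.15. In IVF-ET the genes with the smallest p-values on each side of 0 were PSMB8, an immunoproteasome subunit, at -0.22 ± 0.14 and the kinase JAK1 at -0.14 ± 0.13, with the class I activator NLRC5 at 0.24 ± 0.26 and the phosphatase PTPN6 at 0.29 ± 0.27 (SD, n = 4). In AI they were HERC6, an ISG15 ligase in mice, at -0.40 ± 0.67 and the receptor chain IFNAR1 at -0.14 ± 0.12, with WARS1, the tryptophan tRNA synthetase, at 0.24 ± 0.23 and the partner chain IFNAR2 at 0.12 ± 0.23 (SD, n = 5), all with adjusted p-values of 1.0 in limma.

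The arrays that stood apart differed in how far the rest of the pathway went with the members. On the second array of AI replicate 1, 22 of 25 effector probes were negative, with a median of -0.83. EPSTI1 was -2.93, IFI16, a sensor of foreign DNA, -2.81, IFIT5 -2.69, CMPK2 -2.54 and PARP9 -2.30, and of the ISG15 enzymes HERC6 was -2.49 and UBA7 -2.30. B2M, the light chain of class I molecules, was -1.96, and the antiviral sensor IFIH1 -1.78. On the arrays of SCNT replicate 5 most of these genes were nearer 0: IFI16 was -0.10 and -0.29, IFIT5 0.20 and -0.16, PARP9 -0.08 and -0.52, B2M -0.12 and 0.33, and IFIH1 -0.20 and 0.32, while CMPK2 was -0.92 and -0.22 and HERC6 -0.53 and -1.10. EPSTI1 (-3.07 and -2.12) and UBA7 (-0.93 and -2.14) were negative in both animals, as was the transcription factor IRF7, at -1.35 and -1.06 in SCNT replicate 5 and -1.62 on the second array of AI replicate 1. Other genes were lower in SCNT replicate 5: UBE2L6, which carries ISG15 in conjugation, was -1.40 and -2.29 against -0.43 on that AI array, and PSMB10, an immunoproteasome subunit, -2.23 and -2.0 against -0.86. One of the BOLA-NC1 probes, for a class I molecule, was -4.52 and -5.37 against -0.87, while the other probes of that gene lay between -0.84 and 0.41 in SCNT replicate 5. The genes of this paragraph were chosen after their values were seen.

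**Figure D5:**
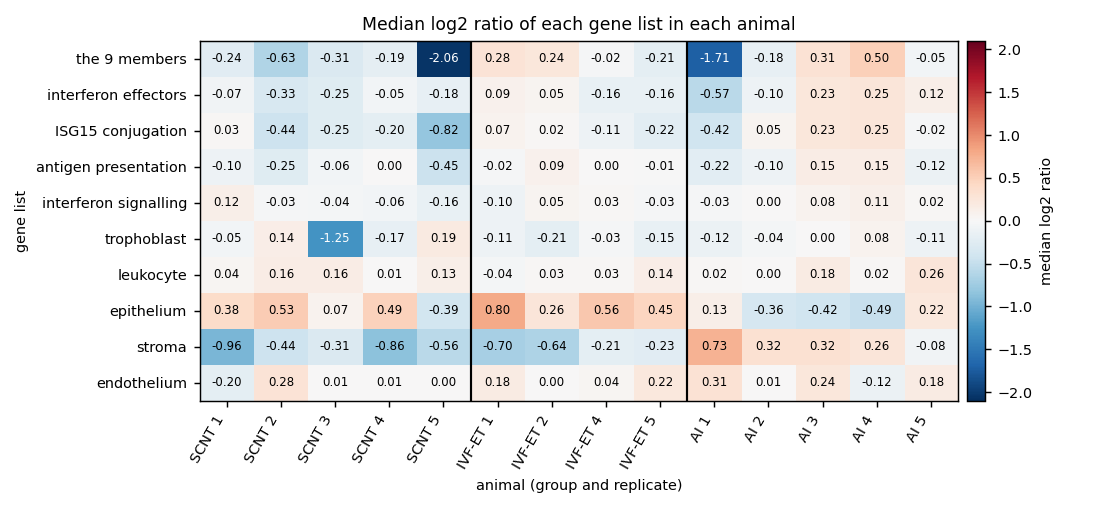
Median log2 ratio of each gene list (rows) in each of 14 animals (columns, SCNT, IVF-ET, AI), with the value printed in each cell. The members reach -2.06 in SCNT replicate 5 and -1.71 in AI replicate 1, the trophoblast list reaches -1.25 in SCNT replicate 3 alone, and the stromal list is negative in every SCNT and IVF-ET animal.

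The trophoblast markers stood apart in other animals than the members. The 13 trophoblast probes, among them IFNT2, a gene of interferon tau, and the pregnancy-associated glycoproteins, had animal medians of -1.25 to 0.19 in SCNT, -0.21 to -0.03 in IVF-ET and -0.12 to 0.08 in AI. The low value was SCNT replicate 3, whose member median was -0.31. In SCNT replicate 4, with a trophoblast median of -0.17 and a member median of -0.19, single trophoblast probes reached -2.42, and in SCNT replicate 5 the trophoblast median was 0.19. The leukocyte lists lay between 0.01 and 0.16 in SCNT, -0.04 and 0.14 in IVF-ET and 0.0 and 0.26 in AI. Of 12 stromal probes, 5 were called negative in SCNT (median -0.85), and of 11 epithelial probes 2 were called positive (median 0.30). With the second array of AI replicate 1 left out these calls were lost with all others in SCNT. With the whole of AI replicate 1 left out 325 probes were called in SCNT, and without SCNT replicate 5 229. The markers among those were not counted. The markers lay on the same sides in IVF-ET, where the members were close to 0. There 9 of 12 stromal probes were negative (median -0.47) and 0 of 11 epithelial probes (median 0.52), with 0 called. In AI replicate 1 the stromal median was 0.73 and the member median -1.71, from arrays that disagreed. Their stromal medians were -0.96 and 2.25 and their member medians -0.08 and -3.46. The part of these markers in the members' values was not tested.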

How the data were processed

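Tissue ratios from 30 two-colour arrays of bovine endometrium were used. The deposited values are log ratios, taken here as log2, whose array medians lay between -0.0206 and 0.019 as the authors deposited them. The log base, normalisation, direction and genome build are not given in the sources used here, so no coordinates, promoter motifs or sequences were used. Adjacent duplicate spots (8750 of 8750 annotated pairs shared an accession) were averaged into 13824 probes. Symbols are those of the platform annotation (8645 probes with 1 symbol, 105 with several, 5074 not listed), and the 9 members all matched the RefSeq table of assembly ARS-UCD2.0 by gene ID.

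Each array was centred on its median and the values were read as already turned to the tissues. Each probe's dye effect was subtracted before averaging the arrays of an animal, so the animal is the replicate. The dye effect was estimated from all animals with both orientations, AI replicate 1 included, also where an animal or array was then left out. Probes with values in at least 4 animals of SCNT and of AI and 3 of IVF-ET were tested (13818) with limma 3.58.1 in R 4.3.3 (lmFit, eBayes, 1 spread per probe shared by the groups), two-sided, with Benjamini-Hochberg adjustment over all probes and a threshold of 0.05. The fit alone, without the dye and averaging steps, was run on simulated independent normal values with a shift larger than any member's group mean. The simulated spread was capped below that of several members, so the run does not show how often differences like those seen here would be called. Replicate numbers name different animals in each group, so nothing pairs the groups.

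The members and the gene lists were chosen with earlier results of these data known. The rule for names took all members, the 2 genes of the interferon lists with the smallest p on each side of 0 in each group, and the 5 genes with the pattern most like the mean of the members. Other genes were chosen after their values were seen. Alternatives changed the reading of the ratio, the sign of AI, the dye effect, IVF-ET replicate 3, the shared spread, array scale, spots, missing values and single animals.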

Additional observations from a re-analysis of the deposited data

Results flagged for a closer look

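Of 30 groups of animal values tested for a value far from its neighbours by Dixon's criterion, 7 held one. Chance flags about 1 group in 20, and the groups share animals. In SCNT the low value was replicate 5 for ISG15 (-3.07), for IRF1 (-2.06) and for the median of the members (-2.06). The gap to the next animal took up 0.728, 0.95 and 0.766 of the range of the 5 animals. In AI it was replicate 1 for MX1 (-2.06), RSAD2 (-2.38) and IFI6 (-4.78), with gaps of 0.806, 0.728 and 0.952 of the range, the last over 4 animals and resting on 1 array. In IVF-ET it was replicate 5 for MX1 (-0.21), whose companions were 0.29, 0.31 and 0.30.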

How the results depend on the processing

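No member was called in any of the 6 comparisons under the alternatives of processing and reading that were tried, with 1 exception: read as Cy5 over Cy3, 1 member (MX1) was called in AI, and it was lost when AI replicate 1 was also left out. Leaving out single animals kept the counts of called members and of called interferon list probes at 0 to 0. Of the interferon list probes, 1 (IRF3) was called in SCNT with arrays scaled to a common spread, and 2 (B2M at -0.58 and IFIH1 at -0.42) in AI read as Cy5 over Cy3. The cause was not tested. The median of the members ran, over single animals left out, from -0.66 to -0.27 in SCNT (lowest size without replicate 5), -0.02 to 0.13 in IVF-ET and -0.45 to 0.03 in AI (0.03 without replicate 1). Read as Cy5 over Cy3 it was 0.10 in SCNT, -0.05 in IVF-ET and -0.43 in AI, and 0.26 in AI with its sign turned. Single member means moved by less than 1 SD in 296 of 309 other alternatives and in 378 of 378 with 1 animal left out, and the others all came from another reading of the ratio's direction. The settings without the second array of AI replicate 1, with or without SCNT replicate 5, and the Cy5 over Cy3 reading without AI replicate 1, were chosen after seeing the data. Averaging all probes of a gene gave no further value, since each member has 1 probe. No paired analysis was possible because replicate numbers name different animals. How far a spot was above background cannot be read from ratios, and the number of animals limits the precision.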
